A study of Mus musculus with 6 samples.

Results

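The CCN genes and the genes of the YAP/TEAD axis were read in sorted tumour fibroblasts. The members were chosen by name: 5 CCN genes (Ccn1, formerly Cyr61; Ccn2, Ctgf; Ccn3, Nov; Ccn4, Wisp1; Ccn5, Wisp2), the coactivator genes Yap1 and Wwtr1, the transcription factor gene Tead1, and the genes Ankrd1 and Amotl2. All 10 were among the 12235 genes of the deposited table, and all 10 passed the filter on low values that left 9646 genes for testing. The cells came from tumours of the mouse mammary carcinoma line 4T1, grown after 100000 cells had been placed in the mammary fat pad of females of the BALB/c strain aged 8 weeks. The labels name the injected line once as 4T1-GFP and once as 4T1-luc. Live cells negative for Ter119, CD45 and EpCAM and positive for podoplanin (PDPN), called pCAFs for PDPN+ cancer-associated fibroblasts, were split by Ly6C, and 3 libraries of Ly6C+ cells were compared with 3 of Ly6C- cells. Both groups share the strain, tumour model and sort, and neither is a normal tissue control. The labels do not say whether the libraries of a group came from separate animals or pools, so the p-values measure the spread between these samples.

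CCN proteins are secreted matricellular proteins, which sit in the extracellular matrix and bind integrins, heparan sulphate proteoglycans and LRP receptors. YAP and TAZ (the product of Wwtr1) are transcriptional coactivators that the kinases of the Hippo pathway keep out of the nucleus by phosphorylation, and in the nucleus they act mainly through the DNA-binding TEAD factors. Ccn1, Ccn2, Ankrd1 and Amotl2 are widely used as readouts of that activity, and Ccn2 is also a classical gene of the TGF-beta response in fibroblasts. Because YAP and TAZ are controlled largely by phosphorylation and location, the RNA of their genes is not a measure of their activity.

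Promoter sequence is shown for the 3 readout genes that differed between the groups and had an entry. Windows from 250 bases before to 50 after the start site came from a set of RefSeq promoters (GRCm38.p6). Ccn1, Yap1, Wwtr1, Ankrd1 and Amotl2, 5 of the 10 members, matched an entry of this set by symbol. Ccn2, Ccn3, Ccn4, Ccn5 and Tead1 were not matched under these symbols, and the former CCN symbols were not tried. The 250 bases upstream of the start are printed 5′ to 3′ on the strand of the gene, with capitals for the TEAD core CATTCC or its reverse complement GGAATG. The intervals are chr3:145649986-145650235 (minus strand) for Ccn1, chr19:36119845-36120094 (minus strand) for Ankrd1 and chr9:102717554-102717803 (plus strand) for Amotl2. For Ankrd1 and Amotl2 the interval lies inside the GENCODE gene span given below, so upstream refers to the RefSeq start only.
Ccn1: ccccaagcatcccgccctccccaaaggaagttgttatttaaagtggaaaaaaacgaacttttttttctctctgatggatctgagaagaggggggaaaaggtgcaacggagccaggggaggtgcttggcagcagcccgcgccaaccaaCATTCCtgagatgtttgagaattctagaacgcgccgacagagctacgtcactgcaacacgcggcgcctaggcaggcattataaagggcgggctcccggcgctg
Ankrd1: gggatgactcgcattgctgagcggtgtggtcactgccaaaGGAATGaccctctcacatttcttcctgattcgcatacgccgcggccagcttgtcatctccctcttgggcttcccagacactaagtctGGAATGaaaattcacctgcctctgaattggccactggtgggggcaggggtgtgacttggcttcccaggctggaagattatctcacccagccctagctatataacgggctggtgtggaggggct
Amotl2: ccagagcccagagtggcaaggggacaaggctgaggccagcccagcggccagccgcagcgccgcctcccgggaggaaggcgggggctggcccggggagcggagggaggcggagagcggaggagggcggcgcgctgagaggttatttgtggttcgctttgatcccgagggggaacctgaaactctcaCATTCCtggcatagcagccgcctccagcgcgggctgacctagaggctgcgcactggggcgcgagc
The core lay at bases -103 to -98 in Ccn1, at -210 to -205 and -123 to -118 in Ankrd1, and at -65 to -60 in Amotl2, counted from the RefSeq start site. Yap1 and both entries of Wwtr1 also held it, so that all 5 genes with an entry did. The share was 16.6% of the 27025 genes in the promoter set (14.7% of its 32851 windows). The AP-1 motif TGANTCA and the SRF CArG box were searched on both strands of the same windows and found in none of the 5 genes, against 8.97% and 1.81% of all genes. The SMAD motif CAGAC, on either strand, was in Ccn1, Yap1 and Ankrd1 and in 53.2% of all genes, and 1 of its matches in Ankrd1 shares a base with the TEAD core. These matches describe letters in a window and are not evidence of binding.

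Of the 10 genes, 4 were higher in Ly6C+ pCAFs (Ccn1, Ccn3, Ccn5, Amotl2), 3 were lower (Ccn4, Tead1, Ankrd1) and 3 did not pass (Ccn2, Yap1, Wwtr1). The test was limma on log2(value + 1), with Benjamini-Hochberg adjusted p under 0.05 over all tested genes. The values are deposited normalised counts, that is, reads divided by a size factor for each library. By the same rule 17.1% of all 9646 tested genes were called, 9.41% higher and 7.66% lower in Ly6C+. For 8 of the 10 members every library of 1 group lay above every library of the other group (no overlap), against 33.1% of all tested genes. Each member had from 17 to 7976 reads in a library. In RNA from sorted bulk cells, fewer cells expressing a gene and less of its RNA in each cell cannot be told apart.

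**Figure D1:**
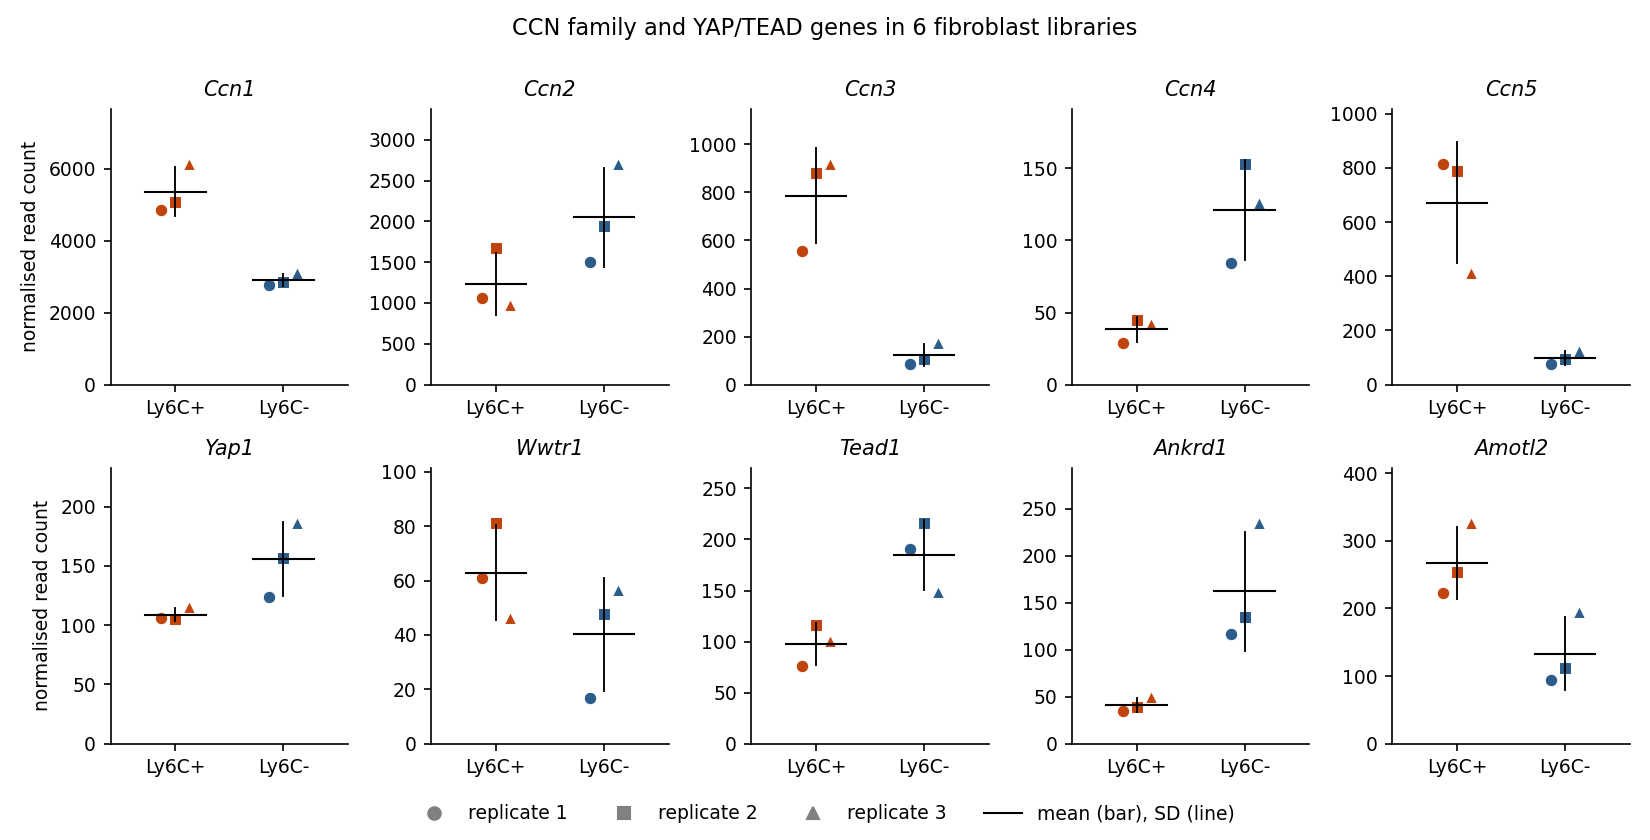
Deposited normalised counts of the 10 genes in each library, 1 panel per gene, with each axis starting at 0; symbols mark replicates and the bars the group mean with its SD (n = 3). The groups overlap for Ccn2 and Wwtr1, and the panels show opposite directions for Ccn3 and Ccn4 and for Amotl2 and Ankrd1.

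Ccn3 and Ccn5 had the widest differences of the 10 genes. Ccn3 encodes a CCN protein known in other settings to oppose CCN2 in matrix production. Its normalised count was 558.1, 882.5 and 918.7 in the Ly6C+ libraries and 87.59, 108.0 and 174.4 in the Ly6C- libraries. The lowest Ly6C+ library was thus far above the highest Ly6C- one. The mean was 786.4 ± 199 (SD, n = 3) against 123.3 ± 45.4 (SD, n = 3), 6.38-fold higher in Ly6C+. The log2 fold change was 2.69 (SE 0.27; limma adjusted p = 4.91e-05).

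Ccn5 encodes the CCN protein that lacks the C-terminal module of the others. Its normalised count was 814.9, 788.5 and 413.4 in Ly6C+ and 75.78, 93.58 and 124.5 in Ly6C-. Ly6C+ replicate 3 was the low library of its group and still lay above every Ly6C- library. The means were 672.3 ± 225 and 97.97 ± 24.7 (SD, n = 3 each), 6.86-fold higher in Ly6C+, with a log2 fold change of 2.73 (SE 0.27; limma adjusted p = 5.00e-05).

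Ccn1 encodes an integrin ligand and is an immediate early gene of serum and stress as well as a YAP/TEAD target. It was counted at 4865, 5075 and 6136 in Ly6C+ and at 2761, 2857 and 3101 in Ly6C-. The groups did not overlap, and the spread within Ly6C- was narrow. The mean was 5358 ± 681 against 2906 ± 175 (SD, n = 3 each), 1.84-fold higher in Ly6C+. Its log2 fold change of 0.88 (SE 0.17; limma adjusted p = 0.00393) became 0.37 after quantile normalisation, where it did not pass (limma adjusted p = 0.174).

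Ccn4, a WNT1-inducible CCN gene, went the other way. The normalised count was 28.67, 45.10 and 41.72 in Ly6C+ and 84.64, 153.1 and 125.9 in Ly6C-. Every Ly6C- library was above every Ly6C+ library. The means of 38.5 ± 8.68 and 121.2 ± 34.5 (SD, n = 3 each) put Ccn4 3.15-fold higher in Ly6C-, a log2 fold change of -1.61 (SE 0.26; limma adjusted p = 0.00142).

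Ccn2, the gene of connective tissue growth factor, did not pass. Its normalised count was 1056, 1674 and 978.2 in Ly6C+ and 1497, 1947 and 2703 in Ly6C-. Ly6C+ replicate 2 lay above Ly6C- replicate 1, so the groups overlapped. The mean was 1236 ± 381 in Ly6C+ and 2049 ± 610 in Ly6C- (SD, n = 3 each), and the log2 difference was -0.73 (95% interval -1.29 to -0.17; limma adjusted p = 0.0774). The call depends on single libraries and on the fit. Without Ly6C+ replicate 2 the difference was -0.97 (limma adjusted p = 0.0293), without Ly6C- replicate 1 it was -0.93 (0.0222), and DESeq2 on the recovered reads gave -0.73 (0.0284).

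**Figure D2:**
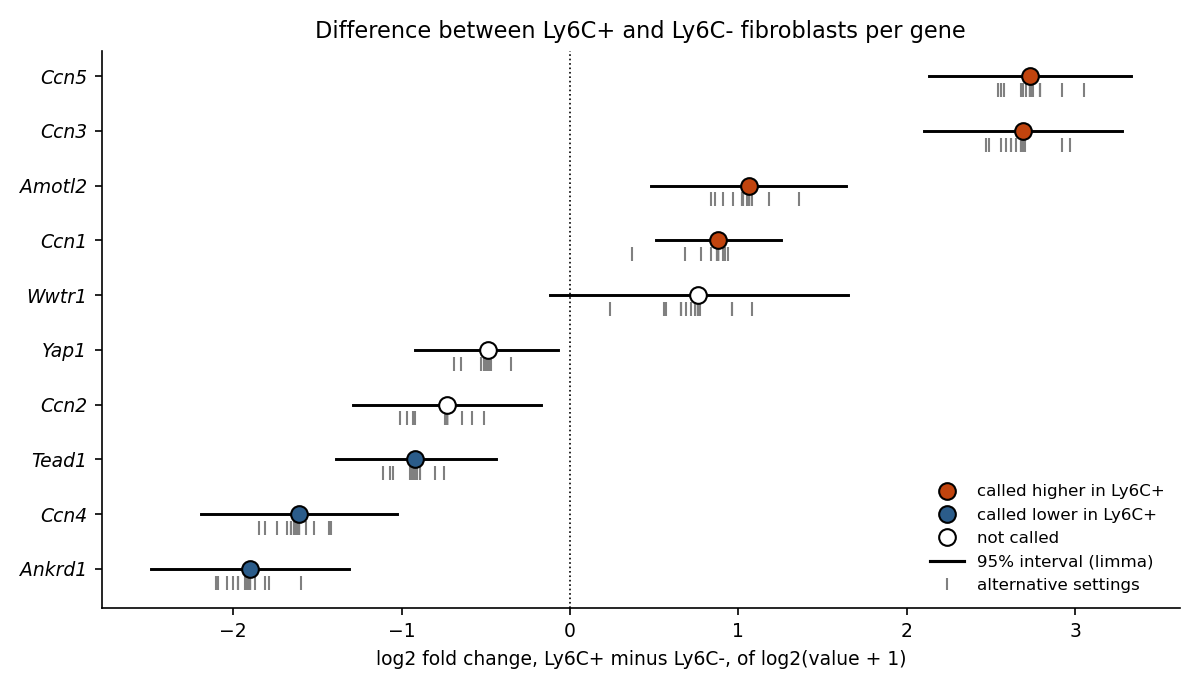
Log2 fold change of each gene, Ly6C+ over Ly6C-, on the log2(value + 1) scale with its 95% interval from limma; coloured symbols passed the adjusted p threshold, and grey ticks give the value in each alternative setting. Ccn3 (2.69) and Ccn5 (2.73) lie at the right end and Ankrd1 (-1.90) and Ccn4 (-1.61) at the left end.

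The levels of the CCN genes were also set against each other within each library. For each library the log2 difference between a pair of CCN genes was taken, which removes the size factor up to the added 1. The values are compared between groups and not between genes, since 3′ end usage differs from gene to gene. Ccn2 minus Ccn1 was -2.20, -1.60 and -2.65 in the Ly6C+ libraries and -0.88, -0.55 and -0.20 in the Ly6C- libraries. Each Ly6C+ library had less Ccn2 relative to Ccn1 than any Ly6C- library, and the group means differed by -1.61. Of 10 pairs, 9 did not overlap between the groups, against 37.0% of all pairs of tested genes. The 10 pairs reuse 5 genes, 4 of which were called above, so they restate those differences and are a description. Each of the 9 had the smallest p that an exact two-sided permutation test of 3 against 3 can give, 0.1 (0.1111 after adjustment over the 10 pairs), so this test cannot reach 0.05. The widest were Ccn5 minus Ccn4, higher by 4.34 in Ly6C+, and Ccn4 minus Ccn3, with a difference of -4.30.

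The remaining pair was Ccn5 and Ccn3. Their log2 difference was 0.55, -0.16 and -1.15 in Ly6C+ and -0.21, -0.21 and -0.48 in Ly6C-. The Ly6C+ values spread on both sides of the Ly6C- values, and the group means differed by 0.04 (exact permutation p = 0.8). Ccn3 was lowest and Ccn5 highest in Ly6C+ replicate 1, whereas in replicate 3 Ccn3 was highest and Ccn5 lowest.

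**Figure D3:**
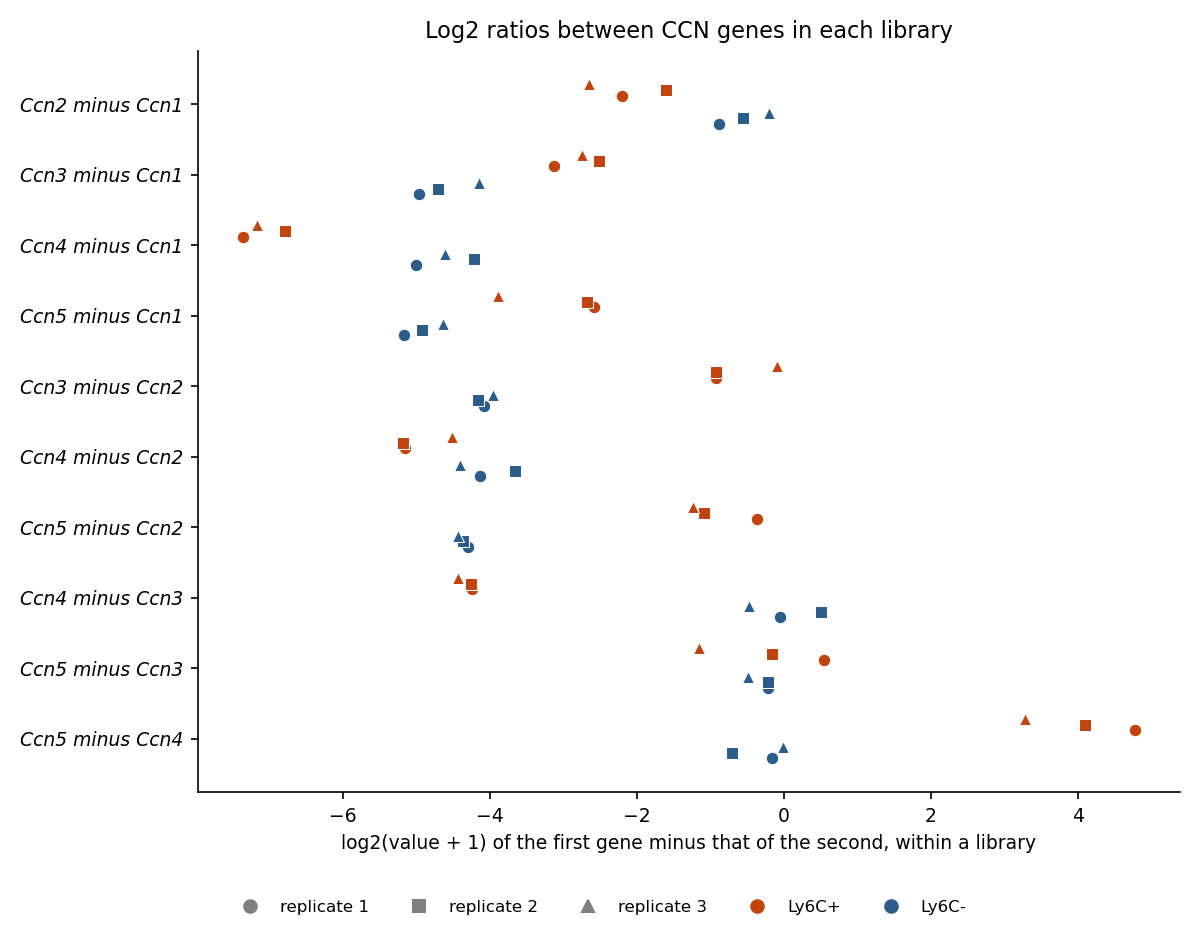
Log2 difference between the members of each pair of CCN genes within a library, with symbols for replicates and colours for groups. The groups are apart for 9 of 10 pairs; for Ccn5 minus Ccn3 the Ly6C+ libraries run from -1.15 to 0.55 and enclose the Ly6C- libraries.

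Among the coactivators and TEAD factors, 1 gene passed, Tead1, with more RNA in Ly6C-. Tead1 encodes a DNA-binding partner of YAP and TAZ. Its normalised count was 76.24, 116.5 and 100.4 in Ly6C+ and 190.9, 216.1 and 148.1 in Ly6C-. No Ly6C+ library reached the lowest Ly6C- library. The means were 97.73 ± 20.3 and 185.1 ± 34.3 (SD, n = 3 each), 1.89-fold higher in Ly6C-, and the log2 fold change was -0.92 (SE 0.22; limma adjusted p = 0.0127). Without Ly6C+ replicate 1 it was -0.75 and without Ly6C- replicate 2 it was -0.80, and neither passed (limma adjusted p = 0.0581 and 0.0739).

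Yap1 was counted at 106.1, 105.2 and 115.1 in Ly6C+ and at 124.0, 156.5 and 186.2 in Ly6C-. All Ly6C- libraries were above all Ly6C+ libraries, by a small margin for replicate 1. The log2 difference was -0.49 (95% interval -0.92 to -0.07; limma adjusted p = 0.112), which did not pass. Without Ly6C- replicate 1 it was -0.65 and passed narrowly (limma adjusted p = 0.0487).

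Wwtr1, the TAZ gene, was counted at 60.99, 81.18 and 46.36 in Ly6C+ and at 16.73, 47.64 and 56.37 in Ly6C-. The groups overlapped, and Ly6C- replicate 1, with 17 reads, was the low library. The log2 difference was 0.76 (95% interval -0.12 to 1.65; limma adjusted p = 0.247), and 0.24 without that library.

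The other genes of this list had intervals that reached close to or across 0. Tead2 was 65.95 ± 4.68 in Ly6C+ and 94.04 ± 16.8 in Ly6C- (SD, n = 3 each; log2 difference -0.49, interval -0.94 to -0.05; limma adjusted p = 0.132). Tead3 was 127.1 ± 6.63 and 162.2 ± 18.7 (SD, n = 3 each; -0.34, interval -0.72 to 0.03; limma adjusted p = 0.218). For Tead1, Tead2 and Tead3 no library of Ly6C+ reached the lowest of Ly6C-. The groups did not overlap, in either direction, for 33.1% of all tested genes. Vgll3, a cofactor that competes with YAP for TEADs, gave 0.58 (interval -0.29 to 1.46; limma adjusted p = 0.380), and Tead4 had 2 reads in Ly6C+ and 0 in Ly6C-. Over the 7 tested of 8 genes in the table, 0 were higher and 1 was lower. The share called was thus 14.3%, against 17.1% of all tested genes. The median log2 difference was -0.34 against -0.0007 for all tested genes. Tead1 did not pass without Ly6C+ replicate 1 or without Ly6C- replicate 2, which left 0 lower, and the count was 2 without Ly6C- replicate 1 or without Ly6C- replicate 3.

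Ankrd1 and Amotl2, both used as YAP/TEAD readouts, moved in opposite directions. Ankrd1 encodes an ankyrin repeat protein that acts in the nucleus and in the muscle sarcomere. Its normalised count was 34.77, 39.09 and 49.45 in Ly6C+ and 117.1, 134.4 and 234.7 in Ly6C-. The highest Ly6C+ library was well under the lowest Ly6C- library. The means were 41.1 ± 7.55 and 162.1 ± 63.5 (SD, n = 3 each), 3.94-fold higher in Ly6C-, and the log2 fold change was -1.90 (SE 0.27; limma adjusted p = 0.000537).

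Amotl2 encodes an angiomotin family scaffold that binds YAP and restrains it, as well as being its target. It was counted at 222.6, 254.1 and 326.1 in Ly6C+ and at 93.5, 111.4 and 194.0 in Ly6C-. The groups came close at Ly6C- replicate 3 but did not overlap. The means were 267.6 ± 53.0 and 133.0 ± 53.6 (SD, n = 3 each), 2.01-fold higher in Ly6C+, with a log2 fold change of 1.06 (SE 0.26; limma adjusted p = 0.0175). The call was lost without Ly6C+ replicate 3 (0.91; limma adjusted p = 0.0717) and without Ly6C- replicate 2 (0.97; 0.0801).

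The 22 genes of a conserved YAP/TAZ target list, which includes Ccn1, Ccn2, Ankrd1 and Amotl2, divided in the same way. Of 21 tested, 4 were higher in Ly6C+ (Ccn1, F3, Amotl2, Axl), 7 were lower (Igfbp3, Nt5e, Tgfb2, Ankrd1, Dock5, Ptpn14, Arhgef17) and 10 did not pass. The share called was 52.4%, against 17.1% of all tested genes, and the median log2 difference was -0.07. Without the members, 17 genes were tested, of which 2 were higher, 6 lower and 9 not called, again with a median of -0.07. Ly6C- replicate 2 bears on the higher genes, of which 2 passed without it. Arhgef17 (log2 fold change -0.99; limma adjusted p = 0.0390) did not pass without any 1 of the 6 libraries (0.052 to 0.136).

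Igfbp3, which encodes an insulin-like growth factor binding protein, differed most within the list. It was counted at 128.1, 218.0 and 141.4 in Ly6C+ and at 2811, 2951 and 1875 in Ly6C-, with no overlap. It was 15.7-fold higher in Ly6C- (log2 fold change -3.97; limma adjusted p = 1.47e-06). Nt5e, the gene of the ectonucleotidase CD73, was 6.457 ± 1.45 against 44.24 ± 9.43 (SD, n = 3 each; log2 fold change -2.60; limma adjusted p = 0.000126). Tgfb2, a TGF-beta ligand gene, was 45.82 ± 11.2 against 151.7 ± 32.1 (SD, n = 3 each; -1.71; limma adjusted p = 0.000468). The genes that were higher in Ly6C+ included F3, the gene of the coagulation initiator tissue factor. It was 229.1 ± 77.3 against 89.34 ± 15.5 (SD, n = 3 each), 2.56-fold higher (log2 fold change 1.30; limma adjusted p = 0.00591). Axl, a receptor tyrosine kinase gene, was 919.5 ± 127 against 543.3 ± 141 (SD, n = 3 each; 0.78; limma adjusted p = 0.0228), and it did not pass in 6 of 20 alternatives, among them those without Ly6C+ replicate 1 (limma adjusted p = 0.0904), Ly6C+ replicate 2 (0.0916), Ly6C- replicate 1 (0.0678) and Ly6C- replicate 2 (0.0887).

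Genes upstream in the Hippo pathway were called at 21.7%, against 17.1% of all tested genes. Of 23 tested among 27 listed kinases, adaptors and upstream regulators, 2 were higher (Amotl2, Stk38), 3 were lower (Ptpn14, Ajuba, Map4k4) and 18 were not called, with a median log2 difference of -0.16. The kinase gene Lats2, itself a YAP target, was 68.01 ± 6.07 in Ly6C+ and 67.67 ± 5.16 in Ly6C- (SD, n = 3 each), and the interval of its log2 difference ran from -0.41 to 0.42. Map4k4, which encodes a kinase that can activate LATS, was 192.4 ± 2.68 and 275.9 ± 2.51 (SD, n = 3 each; log2 fold change -0.52; limma adjusted p = 0.0364). Ajuba, a LIM protein gene, was 11.32 ± 7.34 and 32.28 ± 8.64 (SD, n = 3 each; -1.58; limma adjusted p = 0.0273), and Ptpn14, a phosphatase gene, was 8.721 ± 3.55 and 24.11 ± 7.30 (SD, n = 3 each; -1.40; limma adjusted p = 0.0233). None of the 3 was stable to leaving out a library. Map4k4 did not pass without any 1 of the 6 (limma adjusted p = 0.0623 to 0.118), Ajuba without 4 of them (replicates 1 and 2 of Ly6C+, replicates 2 and 3 of Ly6C-; 0.0649 to 0.103) and Ptpn14 without 3 (replicates 1 and 2 of Ly6C+, replicate 2 of Ly6C-; 0.0707 to 0.123). Stk38, a kinase gene related to LATS, gave 0.74 (limma adjusted p = 0.0456) and, of the 6 fits with 1 library left out, passed in the one without Ly6C- replicate 3 (0.00886). Between 0 and 2 of the list were lower, and between 0 and 2 higher, when any 1 library was left out: 0 were lower without replicate 1 or 2 of Ly6C+ or replicate 2 of Ly6C-, and 0 were higher without Ly6C+ replicate 3 or Ly6C- replicate 2.

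**Figure D4:**
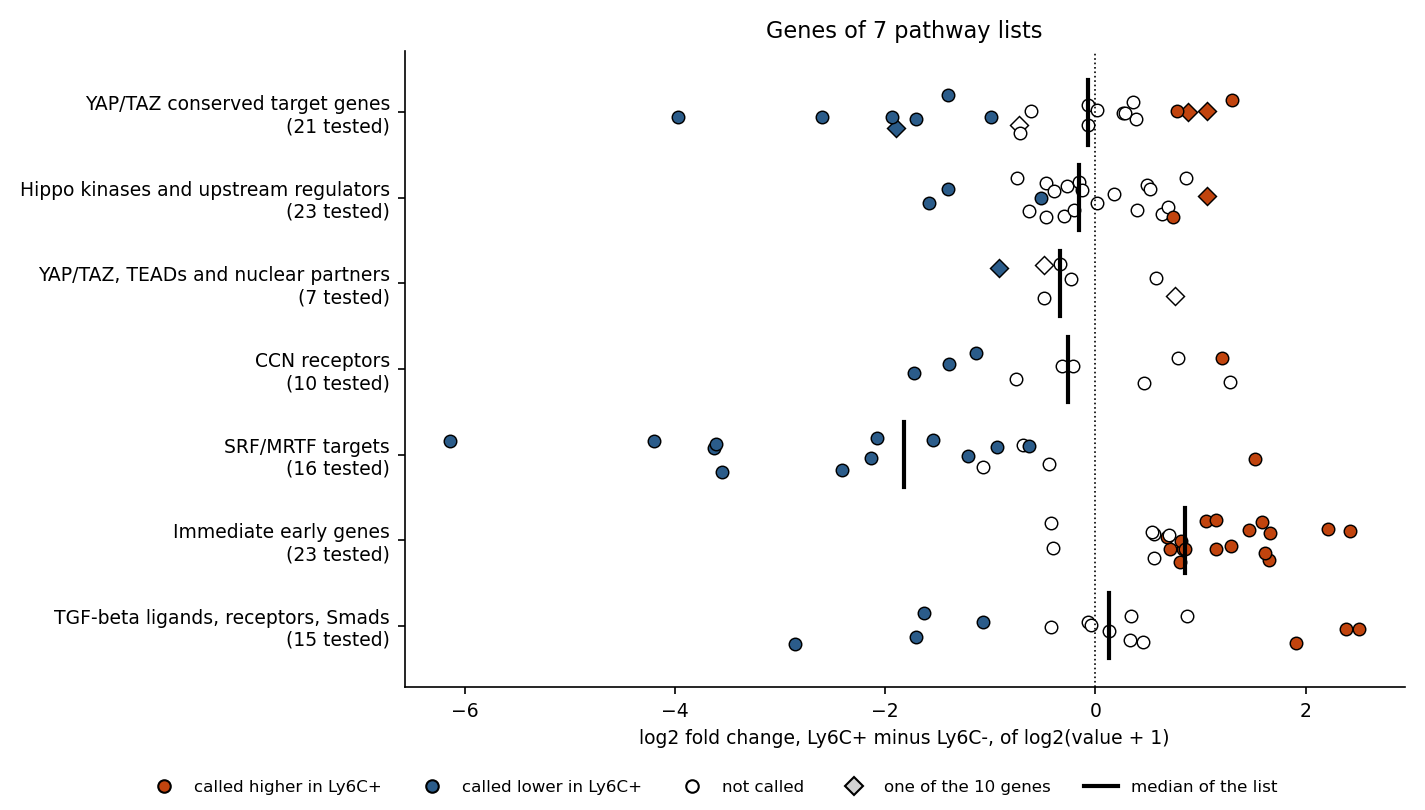
Log2 fold changes, Ly6C+ over Ly6C-, of all tested genes in the pathway lists, 1 point per gene, coloured where limma's adjusted p passed, with diamonds for the 10 genes; the vertical marks give each list's median. The YAP/TAZ target list spans both directions around a median of -0.07, the SRF/MRTF list has its median at -1.82 and the immediate early list at 0.85.

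The receptors through which CCN proteins act shifted in both directions. Of 10 tested among 14 listed, 1 was higher in Ly6C+ (Lrp6), 3 were lower (Itgb1, Itga5, Itgav) and 6 were not called. The share called was 40.0%, against 17.1% of all tested genes, and the median log2 difference was -0.26. Itgb1, the integrin beta 1 gene, was 652.8 ± 86.7 in Ly6C+ and 1704 ± 188 in Ly6C- (SD, n = 3 each; log2 fold change -1.39; limma adjusted p = 0.000171). Its fibronectin receptor partner gene Itga5 was 106.7 ± 18.3 and 360.3 ± 89.7 (SD, n = 3 each; -1.73; limma adjusted p = 0.000280). Both integrin genes were separate between the groups in all libraries, as were 33.1% of all tested genes in either direction. Lrp6, a WNT co-receptor gene, was 68.66 ± 16.2 and 30.35 ± 12.0 (SD, n = 3 each; 1.20; limma adjusted p = 0.0173). The call of Lrp6 was lost without Ly6C+ replicate 1 (limma adjusted p = 0.0537), Ly6C+ replicate 2 (0.0863) or Ly6C- replicate 2 (0.0632), each of which left 0 higher receptors, while 3 were higher without Ly6C- replicate 1. For Itgav (-1.14; limma adjusted p = 0.0443) the groups overlapped, and it did not pass in the fits that left out replicate 1 (0.163) or 2 (0.167) of Ly6C+, or replicate 2 (0.156) or 3 (0.109) of Ly6C-.

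Targets of SRF and immediate early genes were counted in the same fit. SRF and its MRTF cofactors are factors that respond to actin. Of 16 tested targets of theirs, 12 were lower in Ly6C+, 1 was higher (Fhl1) and 3 were not called. The share called was 81.2%, against 17.1% of all tested genes, and the median log2 difference was -1.82. Of 8 tested pericyte and smooth muscle markers 6 were also lower in Ly6C+ and 1 was higher (87.5% called). The part of such cells in this list was not tested. Tagln, the smooth muscle gene transgelin, was 308.6 ± 94.9 against 5536 ± 251 (SD, n = 3 each; log2 fold change -4.20; limma adjusted p = 5.43e-07). Of 23 immediate early genes, 17 were higher in Ly6C+, 0 were lower and 6 were not called, with a median of 0.85. The share called was 73.9%, against 17.1% of all tested genes, and 11 were higher after quantile normalisation. Klf4, a zinc finger factor gene, was 1888 ± 77.7 against 352.9 ± 38.8 (SD, n = 3 each; 2.42; limma adjusted p = 2.10e-06). Immediate early genes also answer tissue dissociation, and both groups were sorted from tumours digested by 1 protocol; the part of that step was not tested.

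Genes of the TGF-beta pathway were called in both directions. Of 15 tested, 3 were higher in Ly6C+ (Tgfbr3, Tgfbr2, Ltbp1), 4 were lower (Tgfb1, Tgfb2, Tgfb3, Ltbp2) and 8 were not called. The share called was 46.7%, against 17.1% of all tested genes, and the median log2 difference was 0.13. All 3 ligand genes were lower in Ly6C+. For Ltbp2 (log2 fold change -1.07, limma adjusted p = 0.0366) the groups overlapped, and it did not pass in 5 of 20 alternatives. The receptor gene Tgfbr2 was 1120 ± 27.1 in Ly6C+ and 306.5 ± 91.8 in Ly6C- (SD, n = 3 each; log2 fold change 1.91; limma adjusted p = 8.50e-05). The co-receptor gene Tgfbr3 was 677.4 ± 140 and 119.1 ± 29.5 (SD, n = 3 each; 2.51; limma adjusted p = 2.39e-05). The other receptor gene of the list, Tgfbr1, overlapped between the groups and was not called (-0.07; limma adjusted p = 0.919).

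The patterns most like those of the CCN genes that passed were looked for over the 6 libraries among 6602 tested genes with a mean of at least 20. Libraries in separate groups share their group's level, so a gene with a like difference between groups scores high, and the coefficients are descriptions. Closest to Ccn1 were Fgf18, C1s1 and Mmp19 (Pearson r of log2 values 0.997, 0.997 and 0.996). Closest to Ccn3 were Hpse, Prg4 and Cxcl5 (each 0.995), and closest to Ccn5 were Sod3, Hdac7 and Atraid (0.995, 0.991 and 0.989). Closest to Ccn4 were P3h1, Kif23 and Tmem59l (0.992, 0.988 and 0.988). Between 118 and 221 genes reached 0.95 for a given CCN gene.

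Within Ly6C-, the members leaned to the same libraries. Replicate 3 was the highest of the group for 8 of the 10 genes and replicate 1 the lowest for 9, where replicate 3 was highest for 42.3% and replicate 1 lowest for 38.2% of all tested genes. Tead1 was the exception at the low end, with its lowest value in replicate 3. In Ly6C+ no library was highest for more than 5 genes. Replicate 1 of Ly6C+ was lowest for 6 of the 10, against 35.8% of all tested genes. Summed markers of several cell types moved over the same Ly6C- libraries. Fibroblast markers rose, with sums of 54510, 58020 and 72360 in Ly6C- replicates 1, 2 and 3. The sums of pericyte and smooth muscle, leukocyte, endothelial and adipocyte markers were each lower in replicate 3 than in replicate 1. Epithelial markers summed to 336.6, 204.2 and 66.86 in Ly6C- replicates 1, 2 and 3, against 10.98 to 56.41 in Ly6C+, and skeletal muscle markers summed to 710.6, 347.1 and 97.02 against 29.36 to 48.86. Of 3 tested muscle markers 2 were lower in Ly6C+ (Des, also a pericyte marker, and Mylpf), 66.7% against 17.1% of all tested genes. Most of that sum was Des, at 684.0, 321.6 and 76.04 in Ly6C-, whereas Tnnt3 was 9.842, 8.507 and 13.11 there and 13.14 to 21.35 in Ly6C+. The part of these cell types in the members' values was not tested. Without Ly6C- replicate 1, 4 members were higher and 5 lower.

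**Figure D5:**
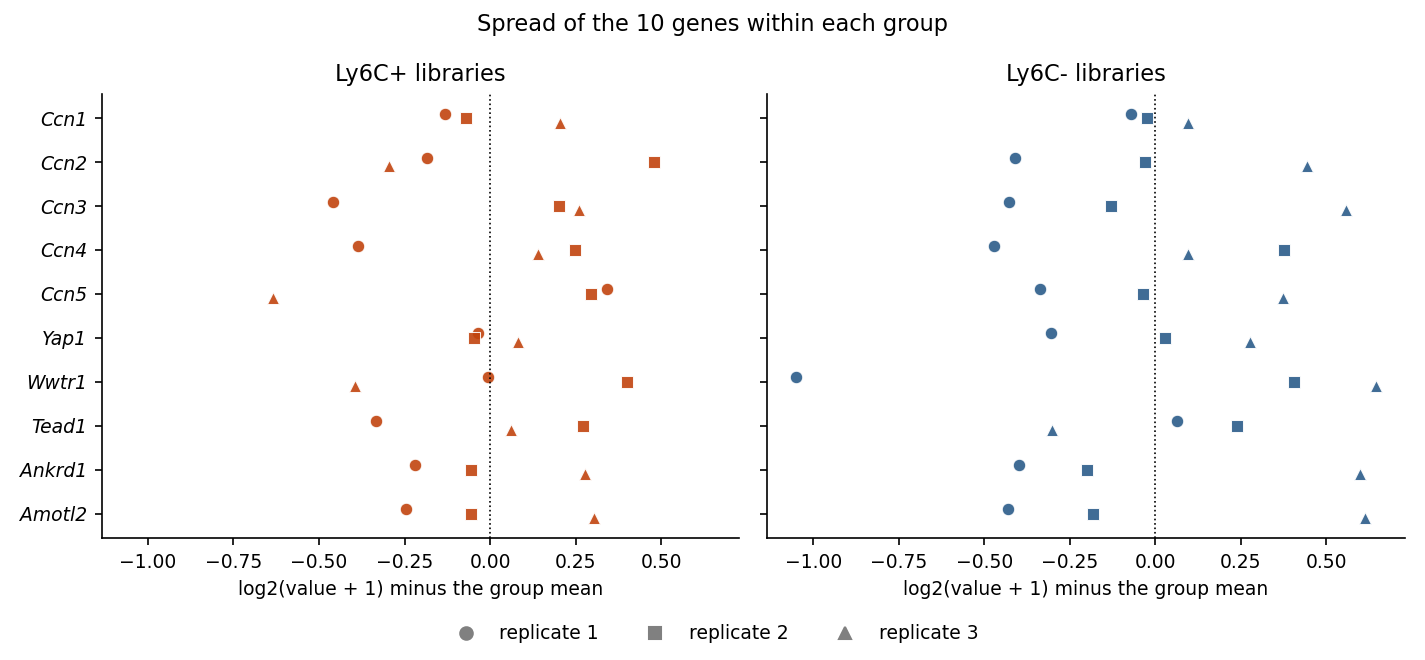
Difference of each gene's log2 value from its group mean, in each library of Ly6C+ (left) and Ly6C- (right). In Ly6C- replicate 1 lies at the low end for 9 of 10 genes and replicate 3 at the high end for 8.

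The Ly6C labels held against Ly6c1, and markers of other cell types were also read. Libraries had 2150531 to 2818269 reads in Ly6C+ and 1176909 to 1721480 in Ly6C-. Ly6c1 was 3102 ± 767 in Ly6C+ and 77.18 ± 11.5 in Ly6C-, and Pdpn was 209.0 ± 24.1 and 95.38 ± 41.3 (SD, n = 3 each). Of 10 fibroblast markers 5 were higher in Ly6C+ and 0 lower. Of 4 tested epithelial markers of 10 listed, 1 was lower (Krt14) and Epcam was at most 2.953. Krt18, which was not called, was 183.1, 97.83 and 20.98 in Ly6C- and at most 27.82 in Ly6C+. Krt14 was 25.59, 40.83 and 26.22 in Ly6C- and at most 0.7727 in Ly6C+, and Krt5 was 3.937, 15.31 and 10.49 in Ly6C- and at 0 in Ly6C+. Of 7 tested leukocyte markers 1 was higher (Lyz2, 14.3% called). The leukocyte sums were 139.1 to 380.0 in Ly6C+ and 59.0 to 189.0 in Ly6C-, and Ptprc was at most 4.879 and at 0 in Ly6C-. Of 8 tested pericyte and smooth muscle markers 6 were lower and 1 higher (87.5% called), with sums of 447.4 to 633.7 and 1204 to 2197. Rgs5 was at most 5.244. Among the lower ones Cspg4 was 26.89 ± 1.8 in Ly6C+ and 367.1 ± 39.1 in Ly6C- (SD, n = 3 each). Myh11 was at most 0.6099 in Ly6C+ and 20.67, 28.92 and 26.22 in Ly6C-. Kcnj8, the higher one, had means of 117.8 in Ly6C+ and 30.05 in Ly6C-. Endothelial markers, with 2 higher and 2 lower of 4 tested (100% called), summed to 108.2 to 143.3 and 38.02 to 147.6, with Pecam1 at most 4.253. Kdr was 88.58, 94.43 and 10.49 in Ly6C- and at most 8.539 in Ly6C+. Plvap was 15.78 ± 3.89 in Ly6C- and 91.61 ± 8.91 in Ly6C+ (SD, n = 3 each). Adipocyte markers, with 1 of 3 tested higher (Fabp4, 33.3% called), summed to 96.59 to 162.4 and 23.6 to 35.43, with Adipoq at most 0.7727. The part of other cell types in the members' differences was not tested. When values were scaled to library totals, the median of all genes was -0.1875 in place of -0.0007, and 37.4% of called genes were higher in Ly6C+ in place of 55.1%; all 10 members kept their direction.

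On GRCm38 (mm10, GENCODE M21) all 10 are protein-coding genes, and the counts refer to the whole gene and not to a transcript. Ccn1 lies at chr3:145646976-145649981, Ccn2 at chr10:24595442-24598683, Ccn3 at chr15:54745702-54754039, Ccn4 at chr15:66891320-66923201 and Ccn5 at chr2:163820861-163833146. Yap1 lies at chr9:7931999-8004596, Wwtr1 at chr3:57455649-57575910, Tead1 at chr7:112679318-112906807, Ankrd1 at chr19:36111961-36120099 and Amotl2 at chr9:102716672-102733418. Ccn2, Yap1, Wwtr1 and Tead1 overlap annotated genes on the opposite strand, and Tead1 also overlaps the microRNA gene Gm44462 on its own strand. None of these overlapping genes is in the deposited table. How strand was handled in counting was not given in the sources used here. Whether the counts of these 4 genes hold or lost reads through such overlaps cannot be told.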

How the data were processed

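RNA of 6 libraries (3 Ly6C+ and 3 Ly6C- pCAFs) was sequenced as 3′ end libraries, per the labels' protocols. Per the submitters' processing notes, bcl2fastq, STAR 2.4.2a and HTSeq were used with mm10; the sources used here do not name the normalisation tool, annotation, strand setting or gene filter (not given in the sources used here). The deposited values are signal values: normalised counts, each the reads of a gene divided by a size factor of its library. All values were whole multiples of 1 step (100% within 0.001 read), so whole reads were recovered.

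Values were taken to log2 after adding 1, which understates changes of low genes. The 9646 genes with a mean of at least 5 held 99.6% of reads and were tested with limma 3.58.1 in R 4.3.3 (mean-variance trend, no block, Benjamini-Hochberg adjusted p under 0.05). edgeR 4.0.16, which called 1722 genes on recovered reads with TMM factors, and DESeq2 1.42.0 were alternatives, with other pseudocounts, filters, scalings, priors and left-out libraries. Pairs of CCN genes were compared by exact permutation tests.

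The members and gene lists were chosen with earlier results of these data known. All 10 members are named, as are up to 4 genes of each list by smallest p (up to 8 for the YAP/TAZ target and TEAD lists); Lats2 and other genes outside this rule were named after their values were seen. For likeness, predicted genes and members were left out. Total reads limit precision most for genes with few reads.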

Additional observations from a re-analysis of the deposited data

How the results depend on the processing

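Over 20 alternatives Ccn3, Ccn4, Ccn5 and Ankrd1 passed in every one and Wwtr1 in none, and all 10 members kept their direction. Ccn1 did not pass after quantile normalisation (0.37), and Amotl2 without the mean-variance trend (1.06). Ccn2 passed after quantile normalisation (-1.01), after scaling to library totals (-0.92), in DESeq2 (-0.73) and with the replicate block in limma (-0.73) and edgeR (-0.73). Yap1 passed with library totals (-0.69) and in edgeR with the replicate block (-0.50). The members lower in Ly6C+ were 5 with library totals and 5 in edgeR with the replicate block. With 1 library left out, log2 fold changes ran from -0.97 to -0.51 for Ccn2, from -0.65 to -0.35 for Yap1, from -1.07 to -0.75 for Tead1 and from 0.84 to 1.36 for Amotl2. Lower members then numbered 2 to 5, and the members' median ran from -0.20 (without Ly6C- replicate 1) to 0.28.

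For the YAP/TAZ target list the median was -0.34 without a filter, -0.27 with library totals and -0.29 to -0.05 with 1 library left out. The fit without a filter added 1 gene to this list, Foxf2, with 2 to 9 reads in a library. The other genes kept their log2 differences there. Lower targets were 4 at a mean of at least 20, where fewer genes were tested, and 5 to 7 with 1 library left out; higher targets were 2 without the trend and 2 to 4 with 1 library left out. For YAP/TAZ, the TEADs and their partners the median was -0.29 without a filter, -0.42 at a mean of at least 20, -0.54 with library totals and -0.44 to -0.27 with 1 library left out. Without a filter this list gained Tead4, with at most 1 read in a library. Lower genes there were 3 with library totals, 2 in edgeR with the replicate block and 0 to 2 with 1 library left out. Vgll4, which passed in no alternative, was -0.23 and ran from -0.59 to 0.11 with 1 library left out, changing sign in the fits lacking Ly6C+ replicate 2 (0.02) or Ly6C- replicate 1 (0.11). Where not stated, the cause of a change was not tested.

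The main fit had no replicate block because the labels state no pairing. Same-numbered libraries correlated in their deviations from the group means at 0.129, 0.052 and 0.167. Every library correlated best with its own number, and the other combinations ran from -0.148 to 0.034. Whether same-numbered libraries are pairs cannot be told from these values. With the replicate block 2088 genes passed in place of 1647. With 1 library left out 1121 to 1728 passed. Depth limits genes with few reads, such as Wwtr1 with 17 reads in Ly6C- replicate 1.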
